A study of Mus musculus with 12 samples.

Results

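The mitochondrial ribosomal protein genes were taken as every row of the deposited count and TPM tables whose gene symbol begins with Mrpl or Mrps followed by a number. This rule found 83 symbols, of which 5 pseudogenes were left out, leaving 78 genes among the 53801 in the tables. The 78 genes comprised 49 Mrpl and 29 Mrps symbols, lay on 17 chromosomes and were all annotated as protein coding. All 78 passed the filter on low counts that left 15306 genes for testing, so no gene of the family was lost before the tests. The hearts came from C57BL/6N mice, stated in the methods to be males of 10 to 14 weeks, in 3 groups of 4 hearts each. Sham hearts came from sham-treated animals. Day 1 AMI and day 7 AMI hearts were collected 1 and 7 days after permanent ligation of the left anterior descending coronary artery, which produces an acute myocardial infarction (AMI). No group carried a genetic change or a drug according to the labels, and the day on which sham hearts were taken was not given in the sources used here. Per the methods, the RNA came from whole hearts, and infarcted and spared muscle were not distinguished in the labels.

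The mitochondrial ribosome, or mitoribosome, is the machine that translates the few messages encoded by mitochondrial DNA, which specify core subunits of the respiratory chain and of ATP synthase. Its 2 RNAs are transcribed from mitochondrial DNA, whereas all of its proteins are encoded in the nucleus, made in the cytosol and imported. The large subunit joins amino acids and the small subunit decodes the message. Some of its proteins were inherited from the bacterial ancestor of mitochondria, and others were added later and have no bacterial counterpart. Heart muscle is among the tissues with the most mitochondria.

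The symbols do not map cleanly onto the 2 subunits. *Mrps18a* and *Mrps30* carry a small-subunit name although their proteins sit in the large subunit, and the *Mrps36* protein is now known chiefly as a component of the 2-oxoglutarate dehydrogenase complex. *Mrps18a*, *Mrps18b* and *Mrps18c* are paralogs of 1 bacterial protein. Counts below are given by symbol.

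Promoter sequences of 6 genes are shown because their courses after AMI bracket the family. *Mrpl14* had the lowest fold change, *Mrpl52* and *Mrpl17* were higher on day 1, *Mrpl33* was almost level, and *Mrpl22* and *Mrpl43* were lower on day 7 and carry letters that were searched for. Each stretch holds 150 bases from the RefSeq promoter table (build GRCm38.p6), 5′ to 3′, and ends just before the GENCODE gene. *Mrpl33* is the exception: its GENCODE gene begins further upstream, and the stretch, which lies inside that gene, ends 12 bases before the RefSeq start. Capitals mark GCGCATGC, the core bound by NRF-1, or CCGGAAGT, the core bound by ETS-family factors, on either strand.
Mrpl14 (chr17:45686172-45686321, plus strand): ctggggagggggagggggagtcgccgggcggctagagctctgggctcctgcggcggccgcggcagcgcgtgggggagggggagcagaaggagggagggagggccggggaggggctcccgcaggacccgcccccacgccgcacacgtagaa
Mrpl52 (chr14:54426759-54426908, plus strand): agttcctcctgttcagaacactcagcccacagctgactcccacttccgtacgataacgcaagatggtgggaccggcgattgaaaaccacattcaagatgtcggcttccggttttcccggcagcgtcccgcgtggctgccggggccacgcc
Mrpl17 (chr7:105811100-105811249, minus strand): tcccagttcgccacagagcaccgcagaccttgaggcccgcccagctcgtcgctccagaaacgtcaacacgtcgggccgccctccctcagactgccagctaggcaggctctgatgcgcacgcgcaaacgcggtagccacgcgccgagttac
Mrpl33 (chr5:31613789-31613938, plus strand): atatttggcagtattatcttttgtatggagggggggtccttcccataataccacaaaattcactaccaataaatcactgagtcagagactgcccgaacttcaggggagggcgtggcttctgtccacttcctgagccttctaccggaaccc
Mrpl22 (chr11:58171511-58171660, plus strand): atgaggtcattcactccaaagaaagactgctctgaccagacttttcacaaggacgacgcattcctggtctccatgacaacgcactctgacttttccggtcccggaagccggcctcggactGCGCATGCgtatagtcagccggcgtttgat
Mrpl43 (chr19:45006443-45006592, minus strand): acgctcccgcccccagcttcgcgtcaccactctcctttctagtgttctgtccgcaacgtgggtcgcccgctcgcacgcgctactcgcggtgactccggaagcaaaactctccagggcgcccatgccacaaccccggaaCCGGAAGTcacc
Exact matches were counted over the full RefSeq windows of 300 bases, from 250 before to 50 after each start, for the 69 genes of the family that matched by symbol. GCGCATGC was present for 8 of 69 genes (11.6%), against 5.68% of 10730 tested protein-coding genes and 3.05% of all 27025 genes in the table. CCGGAAGT was present for 12 of 69 (17.4%), against 8.54% and 4.31%. AAGATGGCG, the core bound by YY1, was present for 8 of 69 (11.6%), against 3.31% and 1.64%. At least 1 of the 3 cores was present for 26 of 69 genes (37.7%), against 16.3% and 8.47%. A gene of the family also began within 1000 bases of another gene transcribed away from it in 18 of 78 cases (23.1%), against 9.52% of 13817 tested protein-coding genes. These matches describe letters and positions and were not tested.

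Total counts ran from 23204551 to 32166517 per library. Each gene of the family was read well, with 228 to 5988 counts in a library and a median of 1069. The labelled tissue was borne out by its markers, since all 11 cardiomyocyte genes on the list were tested and their summed level lay between 44888 and 94520 CPM (counts scaled to a common library total) in every heart. Nothing in the labels ties hearts to litters or days, so whether these differed between groups could not be checked. The edgeR p-values rest on the spread of hearts within groups, estimated jointly over all groups in the same model. Levels below are CPM after TMM scaling, which sets the bulk of genes level between libraries, and a fold change compares 2 groups on that scale. A gene was called when the FDR, the Benjamini-Hochberg adjusted p over all 15306 genes from edgeR's quasi-likelihood test, was below 0.05.

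By day 7 almost the whole family was lower than in sham. Of 78 genes, 76 fell, a share of 97.4% where 28.4% of all tested genes were called lower. No gene of the family was called higher by edgeR, where 30.9% of all genes were; the number was also 0 at an unadjusted p under 0.05 and 0 by DESeq2, but 4 by limma on log2(TPM + 1). The median log2 fold change of the family was -0.75, against 0.03 for all genes, and the single values ran from -1.46 to -0.04. In 73 genes every day 7 heart lay below every sham heart, where this held for 24.7% of all genes. The change was moderate in size: 56 genes were lower by at least 1.5-fold, and 13 by at least 2-fold, the latter against 5.88% of all genes. The share of all genes at 1.5-fold was not counted. The lower quartile of log2 fold change was -0.88 in the family and -0.39 over all genes.

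**Figure D1:**
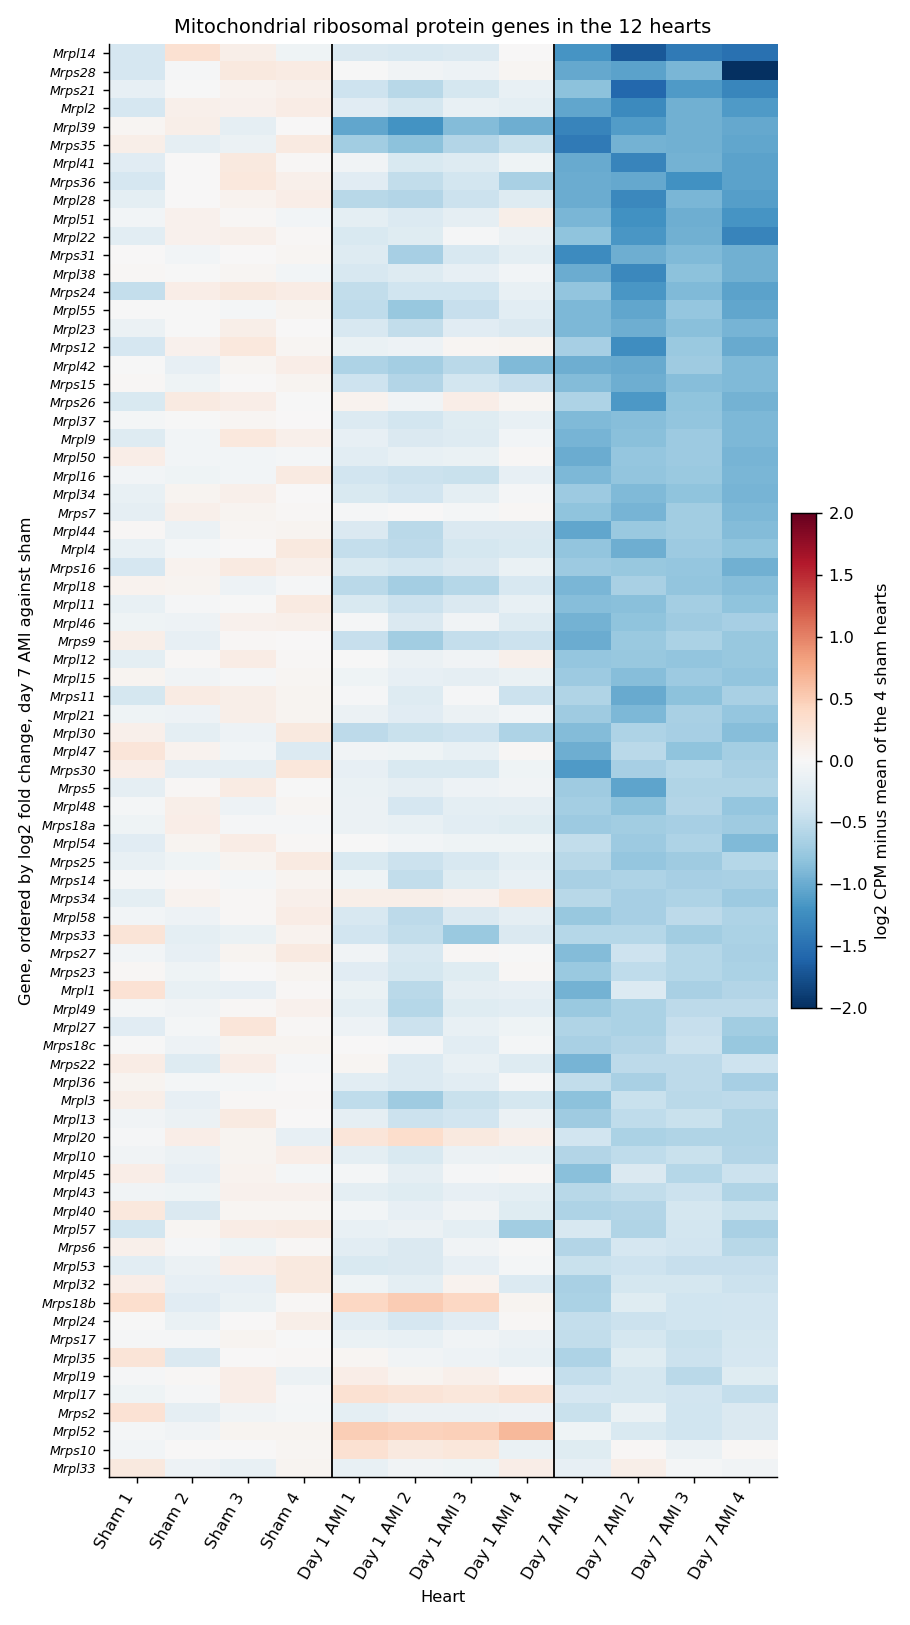
Level of each of the 78 genes (rows, ordered by log2 fold change at day 7) in each of the 12 hearts (columns), as log2 CPM minus the mean of the 4 sham hearts, blue for lower and red for higher. The 4 day 7 columns are blue in nearly every row, while the day 1 columns are paler and hold a few red rows near the bottom, among them *Mrpl52*, *Mrpl17* and *Mrps18b*.

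*Mrpl14* (chr17:45686322-45698495, GRCm38, plus strand), a large-subunit protein at the face that meets the small subunit, had the lowest value. It measured 42.0, 65.4, 57.4 and 50.2 CPM in the sham hearts, 43.2, 42.7, 43.4 and 53.2 on day 1, and 23.3, 16.3, 19.8 and 18.8 on day 7. Day 1 hearts overlapped the sham hearts, and all 4 day 7 hearts lay below both other groups. Its level on day 7 was 0.365 times that in sham (log2 fold change -1.46, SE 0.14, FDR 1.07e-06).

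*Mrps28* (chr3:8802146-8923918, minus strand), a small-subunit protein, followed. It measured 32.2, 40.1, 46.2 and 45.3 CPM in sham, 40.5, 38.4, 37.7 and 41.4 on day 1, and 20.03, 19.3, 21.4 and 10.2 on day 7. The first 2 groups overlapped, all day 7 hearts were lower, and 1 of them was well below the other 3. The log2 fold change on day 7 was -1.21 (SE 0.18, FDR 5.75e-05).

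*Mrps21*, another small-subunit protein with a bacterial counterpart, was among the 3 most abundant genes of the family per unit length, with a mean of 548 ± 94.5 TPM in sham (SD, n = 4). Its CPM was 78.2, 87.7, 92.3 and 94.4 in sham, 66.2, 59.9, 69.1 and 79.0 on day 1, and 49.8, 29.6, 40.1 and 35.6 on day 7. The day 7 hearts did not overlap either other group (log2 fold change against sham -1.18, SE 0.14, FDR 5.18e-06). *Mrpl2*, a protein close to the site where peptide bonds form, stood at 60.4, 82.4, 81.6 and 84.3 CPM in sham and at 37.1, 31.7, 39.2 and 34.8 on day 7. One sham heart was lower than the other 3, and it still exceeded every day 7 heart (log2 fold change -1.11, SE 0.11, FDR 1.04e-06).

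At the other end, 2 genes were not called lower on day 7. *Mrpl33* (chr5:31596935-31664384, plus strand), a small large-subunit protein, measured 77.6, 62.9, 60.9 and 70.2 CPM in sham, 60.7, 64.2, 63.6 and 74.0 on day 1, and 60.5, 73.3, 66.1 and 64.0 on day 7. The 3 groups overlapped throughout, with a log2 fold change of -0.04 (SE 0.09, FDR 0.727). *Mrps10*, a small-subunit protein, measured 19.0, 19.8, 19.7 and 20.1 CPM in sham, 24.2, 22.6, 23.0 and 17.9 on day 1, and 16.5, 19.9, 18.1 and 20.1 on day 7. Its day 7 value of -0.08 (SE 0.10, FDR 0.526) was likewise within the spread of the hearts, and 3 of its 4 day 1 hearts were above all sham hearts without passing the test (FDR 0.222).

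**Figure D2:**
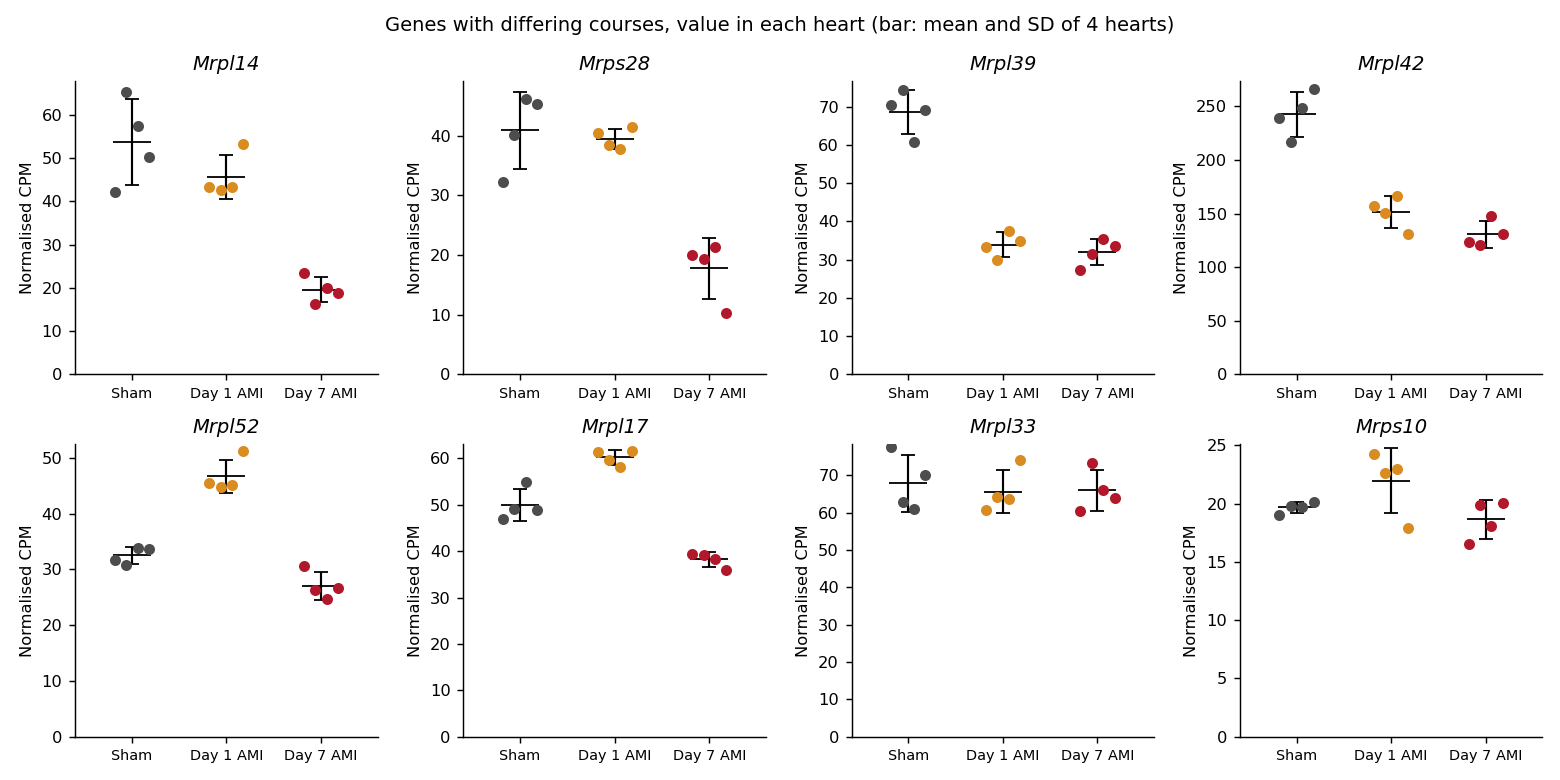
Level of 8 genes in each heart in normalised CPM, with 1 point for each heart and bars for the mean and SD of the 4 hearts in a group. *Mrpl14* and *Mrps28* drop only in the day 7 group, *Mrpl39* and *Mrpl42* are already low on day 1, *Mrpl52* and *Mrpl17* peak on day 1, and *Mrpl33* and *Mrps10* overlap in all groups.

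The smallest called declines on day 7 among genes whose groups did not overlap were those of *Mrpl52* (log2 fold change -0.26), *Mrpl17* (-0.39), *Mrpl19* (-0.40), *Mrps17* (-0.41) and *Mrpl24* (-0.42). They encode 4 large-subunit proteins and, in *Mrps17*, 1 small-subunit protein. On log2(TPM + 1), where the median of all genes was 0.44, all 5 turned positive, and *Mrpl19* was there called higher by limma (0.39). *Mrpl52* and *Mrpl17* were also positive with library sizes alone. Another 3 genes were called although their hearts overlapped between day 7 and sham, namely *Mrpl57* (-0.49, FDR 0.00905), *Mrpl35* (-0.41, FDR 0.00500) and *Mrps2* (-0.32, FDR 0.0126).

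On day 1 the family was divided. With TMM scaling 30 genes fell (38.5%, where 19.9% of all genes were called lower), 3 were higher (3.85%, where 22.0% were called higher) and 45 did not pass the test. The median log2 fold change was -0.19, against -0.01 for all genes. The day 1 hearts lay entirely below the sham hearts in 27 genes, against 17.1% of all genes. A single gene, *Mrpl39*, was lower by at least 2-fold, where 2.98% of all genes were. With library sizes alone the split became 9 higher and 6 lower, and on log2(TPM + 1) it became 9 higher and 4 lower. Of all 15306 genes, 6289 were called higher and 1061 lower with library sizes alone, and 6187 and 736 on log2(TPM + 1). Under those 2 scalings the median of all genes moved up to 0.26 and 0.23, and that of the family stood at 0.07 and 0.12, so that it lay below the median of all genes by 0.19 and 0.11, against 0.18 with TMM.

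*Mrpl39* (chr16:84717576-84735742, minus strand), a mitochondria-specific protein of the large subunit, had completed its decline by day 1. It measured 70.6, 74.4, 60.8 and 69.1 CPM in sham, 33.3, 29.8, 37.6 and 35.0 on day 1, and 27.4, 31.6, 35.3 and 33.6 on day 7. Day 1 and day 7 hearts overlapped each other and both lay far below sham. The log2 fold change was -1.02 (SE 0.10, FDR 1.23e-05) on day 1 and -1.10 (SE 0.10, FDR 6.26e-07) on day 7, and the 2 AMI groups did not differ beyond their spread (-0.09, SE 0.10, FDR 0.498).

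*Mrpl42*, also specific to mitochondria and the most abundant gene of the family (687 ± 58.2 TPM in sham), followed a similar course. It measured 239, 217, 248 and 266 CPM in sham, 157, 151, 166 and 131 on day 1, and 123, 120, 148 and 131 on day 7. All AMI hearts were below all sham hearts, and the AMI groups overlapped (day 7 against day 1, log2 fold change -0.21, SE 0.10, FDR 0.0859). The day 1 fold change was -0.68 (SE 0.10, FDR 0.000130).

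The next lowest day 1 values were those of *Mrps35* (-0.64, SE 0.12, FDR 0.000872), *Mrpl18* (-0.52, SE 0.09, FDR 0.000400) and *Mrps9* (-0.52, SE 0.09, FDR 0.000712). The first and last belong to the small subunit. *Mrpl18* is the counterpart of the bacterial protein that holds 5S rRNA. *Mrps35* went on falling to day 7, from 54.1, 49.7, 58.6 and 64.5 CPM to 32.8, 45.6, 45.0 and 42.5 (log2 fold change -0.45, FDR 0.00677). The smallest called day 1 declines without overlap were those of *Mrps18a* (-0.18, FDR 0.0439), *Mrpl43* (-0.20, FDR 0.0332) and *Mrpl48* (-0.21, FDR 0.0488), all 3 of which turned positive with library sizes alone. Leaving out 1 heart ended the call of *Mrpl43* in 5 of 8 fits and that of *Mrpl48* in 7 of 8.

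Against the majority, *Mrpl52* (chr14:54426909-54429756, plus strand), a mitochondria-specific large-subunit protein, was higher on day 1. It measured 31.7, 30.8, 33.9 and 33.7 CPM in sham, 45.5, 44.8, 45.2 and 51.2 on day 1, and 30.7, 26.2, 24.8 and 26.7 on day 7. Every day 1 heart exceeded every other heart, and day 7 hearts were just below sham. The level was 1.44 times that of sham on day 1 (log2 fold change 0.52, SE 0.08, FDR 0.000266).

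*Mrpl17* (chr7:105803206-105811099, minus strand), the counterpart of a bacterial large-subunit protein, gave 47.0, 49.0, 54.9 and 48.9 CPM in sham, 61.4, 59.8, 58.2 and 61.7 on day 1, and 39.4, 39.3, 38.2 and 36.0 on day 7. The 3 groups were separate, with day 1 highest and day 7 lowest (day 1 against sham, log2 fold change 0.27, SE 0.07, FDR 0.00651). *Mrps18b* was the third, at 33.1, 22.4, 23.9 and 26.8 CPM in sham and 34.9, 37.4, 34.9 and 27.2 on day 1. These hearts overlapped and the gene stood at the threshold (log2 fold change 0.34, SE 0.13, FDR 0.0497), which it missed in 6 of the 8 fits that left out 1 heart of the groups compared.

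Between day 1 and day 7, 69 of 78 genes fell (88.5%, where 22.8% of all genes were called lower). No gene of the family was called higher, where 24.2% of all genes were, and the count was 0 as well at an unadjusted p under 0.05, by DESeq2 and by limma on log2(TPM + 1). The median log2 fold change was -0.50, against 0.02 for all genes, and day 7 hearts lay entirely below day 1 hearts in 66 genes, against 20.9% of all genes. Only *Mrpl14* (log2 fold change -1.22, SE 0.14, FDR 1.17e-05) and *Mrps28* (-1.15, SE 0.18, FDR 0.000162) were lower by at least 2-fold with TMM, where 2.69% of all genes were. *Mrpl51* (-0.94), *Mrps26* (-0.91) and *Mrpl41* (-0.90) followed, each with all day 7 hearts below all day 1 hearts. The smallest called declines without overlap were those of *Mrpl24* (-0.24, FDR 0.0311), *Mrpl53* (-0.24, FDR 0.0463), *Mrpl30* (-0.25, FDR 0.0470), *Mrpl13* (-0.28, FDR 0.0243) and *Mrps17* (-0.30, FDR 0.00178), of which *Mrpl24* and *Mrpl30* turned positive on log2(TPM + 1). Leaving out 1 heart ended the call of *Mrpl53* and *Mrpl30* in 6 of 8 fits each and that of *Mrpl24* and *Mrpl13* in 4 of 8 each. Fold changes against sham and against day 1 share hearts, so they are given side by side and not as separate lines of evidence.

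By course, 26 genes were called lower both from sham to day 1 and from day 1 to day 7. Another 43 were called lower on day 7 against sham without a call on day 1. The log2 fold change was below 0 in all 3 comparisons in 69 genes. The mean level was lowest on day 7 in 77 genes, and highest on day 1 in 8. These courses were counted for the family alone, so no share of all genes can be set beside them.

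**Figure D3:**
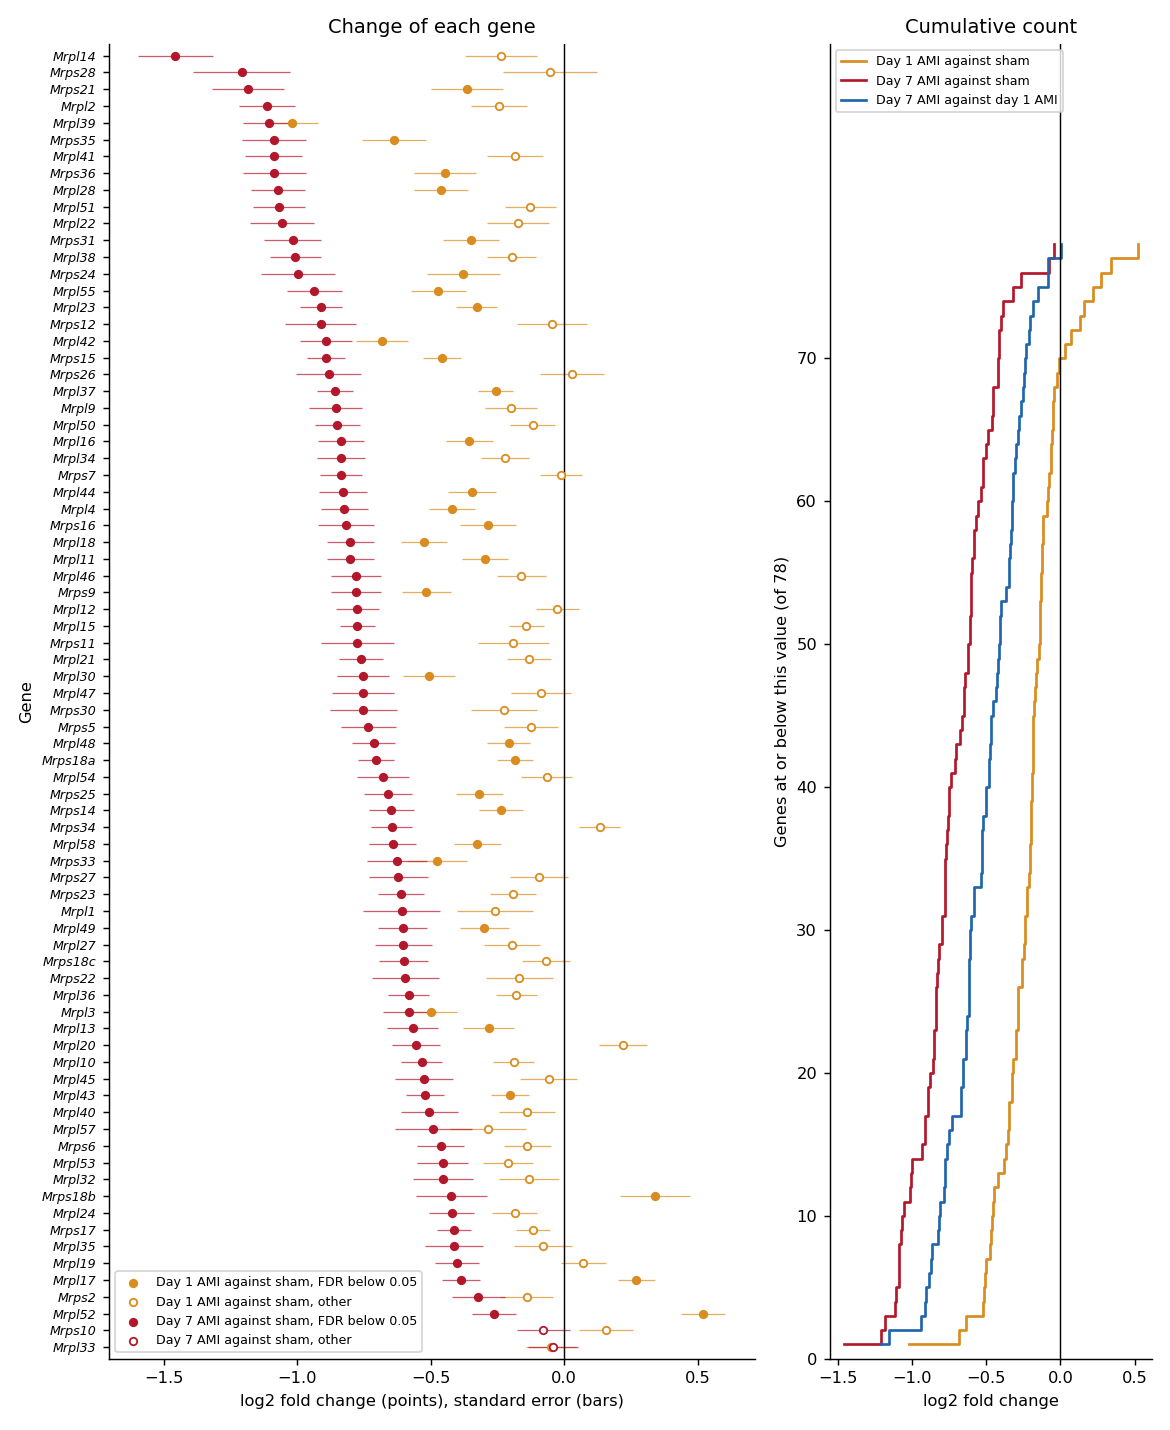
Left, log2 fold change of each gene against sham on day 1 (orange) and day 7 (red), with the standard error as a bar, filled where the FDR was below 0.05; right, the number of the 78 genes at or below each log2 fold change in the 3 comparisons. The day 7 curve has a median of -0.75, the day 1 curve a median of -0.19, and 8 genes lie above 0 on day 1.

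The medians of both kinds of symbol were close. Of the 49 Mrpl genes 48 fell on day 7 (median log2 fold change -0.75), and of the 29 Mrps genes 28 did (-0.73). On day 1, 18 Mrpl and 12 Mrps genes fell, with medians of -0.20 and -0.18. Of 46 genes with a bacterial counterpart 44 fell on day 7 (-0.77), and of 31 genes classed as without one 31 did (-0.68). *Mrps18a* and *Mrps18b* were put in the latter class although they are paralogs of *Mrps18c*, which was put in the former. On day 7, 29 Mrpl and 19 Mrps genes were lower with library sizes alone, and on log2(TPM + 1) 18 and 7. The differences between these medians are small beside the spread of the genes, and they were not tested.

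Several members have a role beyond structure. *Mrpl12* forms part of the stalk that recruits translation factors and is also known to bind the mitochondrial RNA polymerase. It measured 154, 177, 194 and 179 CPM in sham, 174, 162, 166 and 189 on day 1, and 103, 104, 101 and 104 on day 7. The first 2 groups overlapped and the day 7 hearts were close together and lower (log2 fold change against sham -0.77, SE 0.08, FDR 2.15e-06).

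*Mrps12*, a protein of the decoding centre, stood at 26.4, 35.6, 38.6 and 34.4 CPM in sham, 30.6, 31.0, 34.4 and 34.9 on day 1, and 21.1, 14.2, 19.9 and 16.6 on day 7. Sham and day 1 overlapped, and day 7 was lower (-0.91, SE 0.13, FDR 4.45e-05). *Mrpl58*, which frees stalled peptide chains from the ribosome, declined at each step, with log2 fold changes of -0.32 on day 1 (FDR 0.00977) and -0.64 on day 7 (FDR 2.94e-05). *Mrpl41* and *Mrps30*, both linked to cell death when overproduced, were called lower on day 7 (-1.09, FDR 1.30e-06, and -0.75, FDR 0.000140) and not on day 1 (FDR 0.174 and 0.162).

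The 3 *Mrps18* paralogs were called differently on day 1, and the difference between them was not tested. *Mrps18a* fell on day 1 by 0.18 on the log2 scale (FDR 0.0439), with the opposite sign under library sizes alone and on TPM, and reached -0.70 on day 7 (FDR 1.26e-06). *Mrps18c* gave 18.2, 17.2, 19.1 and 19.2 CPM in sham and 18.4, 18.0, 15.9 and 18.0 on day 1, which overlapped (FDR 0.579), and was lower on day 7 (-0.60, FDR 6.12e-05). *Mrps18b*, described above, was higher on day 1 and lower on day 7 (-0.42, FDR 0.0134), the latter turning to 0.12 on log2(TPM + 1). *Mrps36*, the dehydrogenase component, was lower on both days (-0.45, FDR 0.00722, and -1.08, FDR 3.25e-06). The day 1 call of *Mrps18a* was lost in 7 of the 8 fits that left out 1 heart.

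Levels per unit length differed widely within the family. Mean TPM in sham ran from 7.82 for *Mrpl19* to 687 for *Mrpl42*, with a median of 68.1, and the 5 most abundant genes made up 28.1% of the summed TPM of the family. The 3 highest means over the 12 hearts were those of *Mrpl42*, *Mrps21* and *Mrpl33*, and the 3 lowest those of *Mrpl19*, *Mrpl1* and *Mrpl11*. The proteins of the mitoribosome are generally present in 1 copy each, and messages per unit length were not equal. Within sham, the coefficient of variation of CPM was smallest for *Mrpl37* (2.29%) and *Mrps10* (2.45%), and largest for *Mrps24* (19.9%) and *Mrpl14* (18.6%). *Mrpl11*, the counterpart of a bacterial protein at the site where GTP-splitting factors dock, gave 39.4, 43.2, 43.4 and 49.3 CPM in sham and 24.2, 24.4, 27.2 and 24.9 on day 7. *Mrpl1*, of the mobile stalk where used tRNA leaves, gave 39.8, 29.4, 29.0 and 33.3 in sham and 16.9, 26.9, 20.7 and 21.8 on day 7. Both declines passed the test on day 7 (-0.80, FDR 3.54e-06, and -0.61, FDR 0.00212). So did those of *Mrpl37* (-0.86, FDR 1.97e-07) and *Mrps24* (-0.997, FDR 2.92e-05), the least and the most variable in sham.

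The summed level of the family showed how far the scale matters. In CPM after TMM scaling it was 4645 ± 180 in sham, 3920 ± 194 on day 1 and 2762 ± 87.6 on day 7 (SD, n = 4), and the 3 groups were separate. As a share of raw counts it was 0.398% ± 0.0327, 0.405% ± 0.0234 and 0.312% ± 0.00741. In TPM it was 7769 ± 646, 8093 ± 497 and 6756 ± 169. On both of the latter scales sham and day 1 hearts overlapped. The day 7 hearts lay below all others as a share of counts, but in TPM 2 of them, at 6853 and 6882, exceeded the lowest sham heart, at 6811. TMM factors ran from 0.781 to 0.917 in sham, from 1.01 to 1.06 on day 1 and from 1.10 to 1.17 on day 7. Genes of the mitochondrial genome made up 21.4% ± 4.29 of counts in sham, 14.8% ± 1.78 on day 1 and 16.1% ± 2.64 on day 7. Leaving those genes out of the scaling gave 30, 76 and 69 calls lower in the 3 comparisons, the same numbers as with them.

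**Figure D4:**
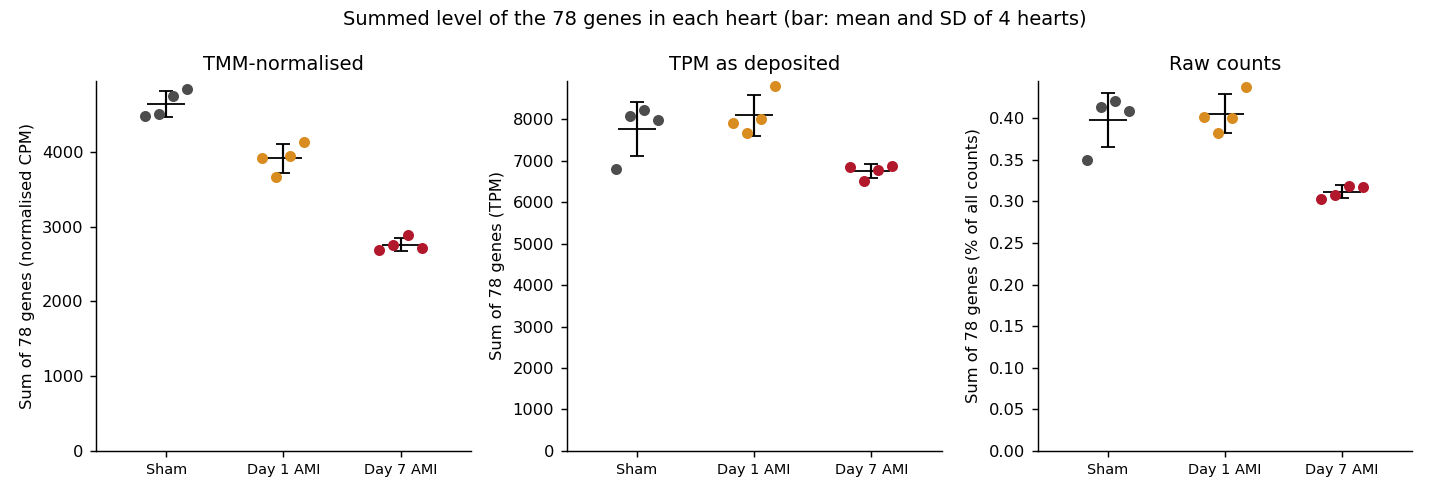
Summed level of the 78 genes in each heart on 3 scales, TMM-normalised CPM, TPM and percent of all counts, with 1 point for each heart and bars for the mean and SD of 4 hearts. The day 7 hearts are below all others in CPM, from 2687 to 2886, and as a percent of counts, while in TPM they overlap the lowest sham heart, and the order of sham and day 1 depends on the scale.

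For day 7 the calls also depended on the scale, while the position relative to other genes did not turn. With library sizes alone 48 genes were lower and 2 higher, and on log2(TPM + 1) 25 were lower and 4 higher. Of all 15306 genes, 1659 were called lower and 8237 higher with library sizes alone, and 1004 and 9404 on log2(TPM + 1). The median of all genes then stood at 0.43 and 0.44 and that of the family at -0.35 and -0.16. In all the scalings run, each of the 78 genes lay below the median of all genes on day 7 against sham.

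Of the 78 genes, 24 had over 10% of their exon bases inside another gene, or over 10% of their 75-base stretches in another transcript. The highest shares were those of *Mrpl53* (88.0%, with *Gm42688*), *Mrps34* (77.8%, with *Mapk8ip3*) and *Mrps25* (69.8%, with *Nr2c2*), whose counts are therefore uncertain, since the strand setting of the counting was not given. Of the genes named above, *Mrpl12*, *Mrpl14*, *Mrpl18*, *Mrpl19*, *Mrpl22*, *Mrpl24*, *Mrpl43*, *Mrpl48*, *Mrps18b*, *Mrps18c*, *Mrps24* and *Mrps36* also belong to these 24. Among the other 54 genes, 22 fell on day 1, 52 on day 7, and 46 between them, with medians of -0.20, -0.77 and -0.48.

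The remaining parts of the mitoribosome were, like most of the family, called lower on day 7 with TMM. Its 5 protein subunits that carry other names, *Dap3*, *Ptcd3*, *Chchd1*, *Aurkaip1* and *Gadd45gip1*, were all called lower on day 7, with log2 fold changes from -0.98 to -0.66. With library sizes alone 5 were called lower on day 7, and on log2(TPM + 1) 3 were. *Dap3*, a GTP-binding small-subunit protein first known for a part in cell death, gave 99.5, 93.9, 99.4 and 108 CPM in sham, 70.0, 68.7, 79.0 and 90.7 on day 1, and 48.5, 50.8, 55.2 and 52.6 on day 7. The 3 groups were separate and stepped down in order. *Dap3*, *Ptcd3* and *Aurkaip1* were also called lower on day 1, and *Chchd1* and *Gadd45gip1* were not (log2 fold changes -0.03 and 0.04). The day 1 median of the 5 was -0.31 with TMM and turned to 0.08 on log2(TPM + 1).

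Both ribosomal RNAs had lower fold changes on day 7 than any of the 78 genes. *mt-Rnr1*, the 12S RNA of the small subunit, gave 2511, 1678, 1537 and 1970 CPM in sham, 941, 870, 854 and 923 on day 1, and 605, 556, 594 and 514 on day 7. The 3 groups were separate (log2 fold change -1.10 on day 1, SE 0.13, FDR 4.51e-05, and -1.76 on day 7, SE 0.13, FDR 1.49e-07). *mt-Rnr2*, the 16S RNA of the large subunit, had values of -0.76 (SE 0.15, FDR 0.00109) and -1.59 (SE 0.15, FDR 9.45e-07). How ribosomal RNA was removed or messages selected was not given in the sources used here, and its part in these values was not tested.

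Those messages that were tested, of the ones the mitoribosome translates, took another course. Of 13 protein-coding genes of the mitochondrial genome 7 were tested. The other 6, *mt-Atp6*, *mt-Atp8*, *mt-Co2*, *mt-Co3*, *mt-Nd3* and *mt-Nd4l*, were listed at no more than 2 counts in a library. The reason for these low counts was not tested, and the values below cover the 7 alone. All 7 were called lower on day 1 and on day 7, with medians of -0.84 and -0.81. With library sizes alone 6 were called lower on day 1 and 2 on day 7 (medians -0.55 and -0.39), and on log2(TPM + 1) 6 and 0 (-0.47 and -0.23). From day 1 to day 7 the count of calls by edgeR was 0 in either direction, also 0 at an unadjusted p under 0.05, by DESeq2 and by limma on log2(TPM + 1), and the median was 0.08. The ratio of both kinds of RNA within a library does not depend on the scaling between libraries. How ribosomal RNA was removed or messages selected does not cancel in it, was not given, and its part in the ratio was not tested. The summed CPM of the 2 ribosomal RNAs was 2.57%, 3.12%, 2.48% and 2.61% of the summed CPM of the 7 messages in sham, 2.57%, 2.36%, 2.29% and 3.44% on day 1, and 2.06%, 1.18%, 1.43% and 1.51% on day 7. Sham and day 1 overlapped (two-sided exact permutation test, p = 0.8, n = 4 per group). All day 7 hearts lay below both other groups, by 0.83 and 0.80 on the log2 scale (exact permutation test, p = 0.0286 each, the smallest that 4 against 4 allows).

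Genes that build and run the mitoribosome mostly followed it. Of 26 genes for assembly and rRNA modification 25 were called lower on day 7 (median log2 fold change -0.65) and 7 on day 1 (26.9%, near the 19.9% of all genes, with a median of -0.14). With library sizes alone 10 were lower on day 7 (-0.25), and on day 1 none was lower and 3 were higher (0.13). On log2(TPM + 1) 3 were lower and 3 higher on day 7 (-0.04), and on day 1 none was lower and 3 were higher (0.17). The lowest TMM-scaled values were those of *Mtg2*, a GTPase of large-subunit assembly, on day 7 (-1.15), *Mettl15*, which modifies 12S rRNA, on day 1 (-0.65), and *Mrm3*, which modifies 16S rRNA, between them (-0.85). Of 16 translation factors 14 were lower on day 7 (median -0.63) and 8 on day 1 (-0.26, turning to 0.02 and 0.06 under those scalings). On day 7 library sizes alone gave 9 lower and 2 higher (-0.23), and log2(TPM + 1) 1 lower and 2 higher (-0.05). Among them *Tufm*, the elongation factor that brings charged tRNA, fell most on day 7 (-1.02, SE 0.09, FDR 3.46e-07) and *Lrpprc*, which stabilises mitochondrial messages, on day 1 (-0.57, SE 0.12, FDR 0.00150). *Pdf*, which removes the formyl group from the first residue of new chains, had the lowest value from day 1 to day 7 (-0.74).

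Of 20 enzymes and helpers that charge mitochondrial tRNA, 19 were lower on day 7 (median -0.68) and 9 on day 1 (-0.22, turning to 0.05 and 0.10 under the same scalings). On day 7 library sizes alone gave 12 lower (-0.28), and log2(TPM + 1) 4 lower and 1 higher (-0.05). *Ears2*, for glutamate, was the exception on day 1, called higher (0.34, FDR 0.0103) before falling by 1.21 on the log2 scale from day 1 to day 7. *Gatb* had the lowest value on day 1 (-0.71) and *Fars2*, for phenylalanine, on day 7 (-1.03). For mitochondrial DNA copying and transcription the counts were 10 of 13 lower on day 7 (median -0.55, turning to 0.01 on log2(TPM + 1)) and 7 on day 1 (-0.25, turning to 0.02 and 0.07). On day 7 library sizes alone gave 3 lower (-0.15), and log2(TPM + 1) 2 lower and 2 higher. *Twnk*, the helicase, had the lowest value on day 7 (-1.01) and from day 1 to day 7 (-0.77), and *Mterf2* the lowest called value on day 1 (-0.76). *Tfam*, which packages mitochondrial DNA, was called on day 7 (-0.43, FDR 0.00138) and not on day 1 (-0.19, FDR 0.131). *Polrmt*, the RNA polymerase, was called on both (-0.55, FDR 2.03e-05, and -0.34, FDR 0.00219).

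The nuclear genes for respiratory chain subunits had lower fold changes than the mitoribosomal family. Of 80 such genes 61 were called lower on day 1 (median log2 fold change -0.41) and 78 on day 7 (-1.08), and 54 were lower by at least 2-fold on day 7. The counts were 12 (-0.15) and 73 (-0.68) with library sizes alone, and on log2(TPM + 1) 5 (-0.09) and 70 (-0.53). The lowest value was that of *Cox8b* on day 1 (-0.65), of *Cox7a1*, the heart and muscle form of a cytochrome oxidase subunit, on day 7 (-1.81) and of *Atp5k* between them (-1.60), while *Cox6a1* was called higher on day 1 (0.23). The mean log2 CPM of the 78 genes, less that of the 80, was set to 0 in sham. It was then 0.00 ± 0.10 in sham, 0.18 ± 0.03 on day 1 and 0.38 ± 0.10 on day 7 (SD, n = 4). The day 7 hearts, from 0.26 to 0.49, lay above all sham hearts, from -0.07 to 0.15. A shift of scale between libraries cancels in this difference.

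With TMM scaling, cytosolic ribosomal protein genes went the other way on day 1. Of 83 tested genes 54 were called higher on day 1 and 2 lower (median 0.36), and 13 were higher and 12 lower on day 7 (-0.08, turning to 0.32 with library sizes alone and 0.49 on log2(TPM + 1), with 49 and 60 called higher). The day 1 shares with TMM, 65.1% higher and 2.41% lower, stood beside 22.0% and 19.9% of all genes. With library sizes alone and on log2(TPM + 1), 78 and 77 of the 83 were higher on day 1 (medians 0.63 and 0.68). The day 1 medians of the mitoribosomal family were then also above 0, at 0.07 and 0.12, and those of all genes were 0.26 and 0.23. The day 7 shares with TMM, 15.7% higher and 14.5% lower, were below those of all genes, 30.9% and 28.4%. With library sizes alone and on log2(TPM + 1), 8237 and 9404 of all 15306 genes were called higher on day 7. The medians of all genes were then 0.43 and 0.44. From day 1 to day 7, 60 were lower and 1, *Rpl39* (0.28), was higher, and the count of lower genes was 36 with library sizes alone and 19 on log2(TPM + 1). *Rpl3* was the most increased on both days (1.28 and 0.94), and *Rpl3l*, its striated muscle paralog, had the lowest value in each comparison (-0.81, -2.24 and -1.42). Less the mean of these 83 genes, the mitoribosomal family stood at -0.56 ± 0.15 on day 1 and -0.66 ± 0.16 on day 7 relative to sham, with all AMI hearts below all sham hearts.

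**Figure D5:**
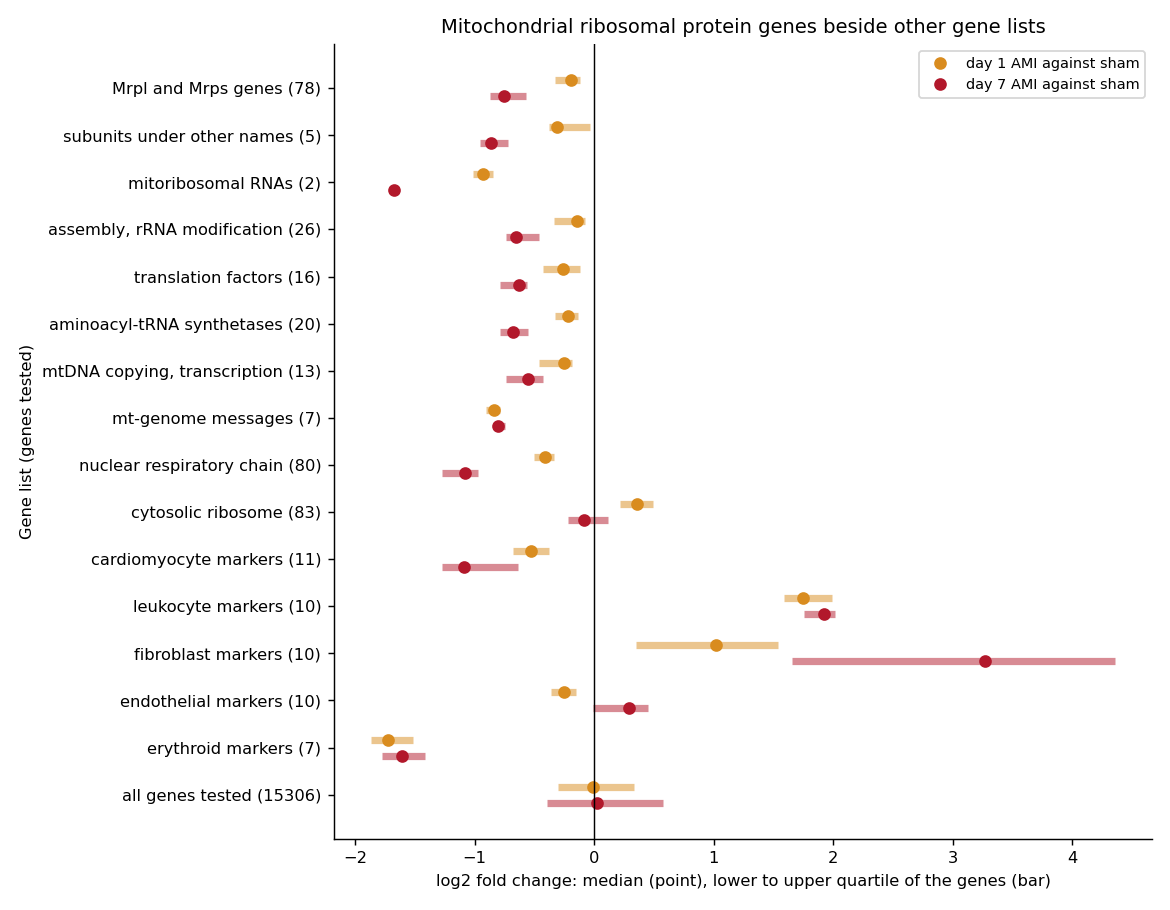
Median log2 fold change (point) and range from the lower to the upper quartile of genes (bar) for each gene list, on day 1 (orange) and day 7 (red) against sham, with the number of genes tested in brackets. The mitoribosomal lists lie to the left of 0 on day 7, at -0.75 for the family and -0.86 for the subunits under other names, the respiratory chain lies further left at -1.08, and the cytosolic ribosome stands at 0.36 on day 1 and -0.08 on day 7.

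Markers of several cell types moved across the same groups. Of 11 cardiomyocyte markers 8 were called lower on day 1 (median log2 fold change -0.53) and 10 on day 7 (-1.09), with *Myh6* lowest on day 1 (-0.87) and *Tcap* on day 7 (-1.55). The counts were 4 and 8 with library sizes alone and 3 and 7 on log2(TPM + 1). Their summed level was 78877 to 94520 CPM in sham, 52168 to 64462 on day 1 and 44888 to 52213 on day 7. All 10 leukocyte markers were higher on both days, led by *Cd52* on day 1 (2.22) and *Ptprc* on day 7 (2.25), and their sum went from 85.1 to 147 CPM in sham to 317 to 467 on day 1 and 324 to 530 on day 7. Of 10 fibroblast markers 8 were higher and 1, *Dcn* (-0.72), lower on day 1, and 10 were higher on day 7, when *Postn* had a log2 fold change of 5.99, and their sum went from 1542 to 1735 CPM in sham to 2580 to 3354 and 11176 to 23062. Every gene of these 3 lists was read in every heart.

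Of 10 endothelial markers 4 were lower on day 1, led by *Vwf* (-0.74), and 6 were higher on day 7, led by *Cdh5* (0.81), with 2 lower, led by *Flt1* (-0.64). Their sum was 1239 to 1442 CPM in sham, 1039 to 1115 on day 1 and 1453 to 1636 on day 7. Of 7 tested erythroid markers 5 were lower on either day, and their sum varied from 517 to 4540 CPM among the sham hearts, 438 to 670 on day 1 and 259 to 999 on day 7. The erythroid calls fell to 3 and 1 with library sizes alone and to 0 and 0 on log2(TPM + 1). Under those scalings the endothelial calls lower on day 1 fell to 0 and 1. On day 7 the endothelial calls became 8 higher and 0 lower under either of them. Of all 15306 genes, 8237 and 9404 were then called higher on day 7, and 1659 and 1004 lower. With TMM, 30.9% of all genes were called higher on day 7 and 28.4% lower. In these bulk hearts fewer cells of a type and less RNA per cell cannot be told apart, and the part of the cell types in the family's values was not tested. Less the mean log2 CPM of the cardiomyocyte markers, the family was at 0.29 ± 0.06 on day 1 and 0.23 ± 0.10 on day 7 relative to sham (SD, n = 4). On this difference sham hearts ranged from -0.07 to 0.16. The day 1 hearts, from 0.23 to 0.36, lay above all of them, and the day 7 hearts, from 0.088 to 0.30, overlapped them.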

How the data were processed

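RNA from 12 mouse hearts (4 sham, 4 day 1 AMI and 4 day 7 AMI) was sequenced on an Illumina instrument from libraries primed with random hexamers. Per the methods and labels, the authors trimmed reads with Cutadapt, aligned them with STAR (2.4.0j) and quantified them with RSEM against mm10 with an Ensembl annotation, and the notes also name CASAVA 1.8. The authors deposited whole-number counts per gene, not normalised, and TPM per gene, which are scaled for transcript length and to a common total. The counting tool, the strand setting and the selection of RNA were not given in the sources used here.

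Counts were tested with edgeR (4.0.16) in R (4.3.3): genes with low counts were removed with filterByExpr, libraries were scaled by TMM, and 1 quasi-likelihood model of the 3 groups gave the 3 comparisons, which share hearts. Adjustment was by Benjamini-Hochberg over all 15306 genes, at a threshold of 0.05 with no fold minimum. Fold changes, standard errors and normalised CPM came from this fit, in which no sample was dropped. Libraries held 23204551 to 32166517 counts in total. The ratio of mitochondrial ribosomal RNA to messages was tested by a two-sided exact permutation test. The scripts were tested on simulated data.

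Alternatives were DESeq2 (1.42.0), limma (3.58.1) on log2(TPM + 1) and log2(TPM + 0.1), other scalings, no filter, only the groups compared, a minimum fold change of 2, a replicate block and leaving out each heart. Leaving out genes with overlap was added after seeing the data. Coordinates came from GENCODE and promoter windows from RefSeq, both for GRCm38, and the tables were matched by identifier or symbol.

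The genes and lists were chosen with earlier results of these data known. Named in each comparison were the 5 lowest and 5 highest fold changes among called genes whose groups did not overlap, genes called against the majority, extremes of TPM and of variation in sham, and examples chosen for their role. For other lists the called genes with the largest change in each direction were named. *Mrpl22*, *Mrpl35*, *Mrpl57*, *Mrps2*, *Mrps25* and *Mrps34* were named after their values were seen.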

Additional observations from a re-analysis of the deposited data

Results flagged for a closer look

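Of 120 groups of 4 hearts examined (the named genes and the summed levels), 8 held a heart that stood apart from the other 3. Chance gives about 1 in 20 where groups are not chosen on their spread. *Mrps24* and *Mrpl14* were named in part for the largest variation in sham, and *Mrpl37* and *Mrps10* for the smallest. That rate therefore does not apply to the sham hearts of these genes. Many other named genes were chosen among called genes whose groups did not overlap, which also depends on spread. For them the rate is only a rough guide. Sham heart 1 had the lowest summed TPM of the family in its group, 6811 against 7978 to 8217 in the others. The same heart was lowest for *Mrpl2* (60.4 CPM against 81.6 to 84.3) and *Mrps24* (50.8 against 78.1 to 81.3).

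Day 1 heart 4 was highest for *Mrpl14*, at 53.2 CPM against 42.7 to 43.4, and for *Mrpl52*, at 51.2 against 44.8 to 45.5. Day 1 heart 2 was lowest for *Mrpl1*, at 22.4 CPM against 28.6 to 29.6, and for *Mrps9*, at 46.3 against 54.1 to 55.7. Day 1 heart 3 was lowest for *Mrps18c*, at 15.9 CPM against 18.0 to 18.4. *Mrpl2* and *Mrps24* remained called lower on day 7 in every fit that left out 1 heart, sham heart 1 included.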

How the results depend on the processing

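With library sizes alone, limma on log2(TPM + 1) and limma on log2(TPM + 0.1), 9, 9 and 9 genes of the family were higher and 6, 4 and 3 lower on day 1, against 3 and 30 with TMM. On day 7 the same settings gave 2, 4 and 3 higher and 48, 25 and 20 lower, against 0 and 76. From day 1 to day 7 they gave 52, 31 and 29 lower, against 69. In that order of comparisons, library sizes alone called 1061, 1659 and 2168 of all 15306 genes lower, and 6289, 8237 and 4772 higher. Limma on log2(TPM + 1) called 736, 1004 and 1278 of them lower, and 6187, 9404 and 5443 higher. In the family, a fold of at least 2 left 0 higher and 1 lower on day 1, 13 lower on day 7 and 2 lower between them. DESeq2 kept every call among the named genes (19, 34 and 31).

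Leaving out 1 heart gave 2 to 5 higher (5 without day 1 heart 4) and 20 to 35 lower (20 without day 1 heart 2) on day 1, 76 lower on day 7 and 62 to 69 between them. Of the calls, 22 of 33 on day 1, 76 of 76 on day 7 and 61 of 69 between them stood in every such fit. Replicate numbers showed no clear sign of pairing the hearts. Deviations of same-numbered hearts correlated between -0.24 and 0.23 and over 0.1 in 4 of 12 pairs. For hearts with different numbers the range was -0.27 to 0.25, with 10 of 36 pairs over 0.1. With the replicate block 2 genes were higher and 24 lower on day 1, 76 lower on day 7 and 67 lower between them.

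Among the named genes that were called, some log2 fold changes turned positive, though each stayed below the median of all genes under that setting. With library sizes alone these were on day 1 *Mrpl37* (0.015), *Mrpl43* (0.070), *Mrpl48* (0.061) and *Mrps18a* (0.085), and on day 7 *Mrpl17* (0.0094) and *Mrpl52* (0.14). On log2(TPM + 1) and log2(TPM + 0.1) they were on day 1 *Mrpl11* (0.025 and 0.026), *Mrpl13* (0.14 and 0.14), *Mrpl37* (0.058 and 0.059), *Mrpl43* (0.12 and 0.12) and *Mrps18a* (0.14 and 0.15). On day 7 they were *Mrpl13* (0.0089 and 0.0091), *Mrpl17* (0.079 and 0.080), *Mrpl19* (0.39 and 0.43), *Mrpl24* (0.17 and 0.17), *Mrpl43* (0.031 and 0.032), *Mrpl52* (0.23 and 0.23), *Mrpl53* (0.095 and 0.096), *Mrps17* (0.016 and 0.016) and *Mrps18b* (0.12 and 0.12). Between day 1 and day 7 they were *Mrpl24* (0.062 and 0.063), *Mrpl30* (0.074 and 0.074) and *Mrpl48* (0.033 and 0.034). The cause was not tested. Levels of messages do not give those of proteins, and the labels do not say how much infarcted tissue each sample held.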
